A study of Rattus norvegicus with 29 samples.

Results

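The immediate early transcription factors described here are 10 genes: Egr1, Egr2, Egr3, Fos, Fosb, Jun, Junb, Atf3, Nr4a1 and Nr4a2. They were chosen by name, with earlier results of these data known. Probes were taken where the gene name in the scanner files equals that of a member. Of the members, 10 of 10 were found among the 24242 genes tested. Each was measured by 1 probe. Their RNA was followed in peripheral blood mononuclear cells (PBMC) of 29 male Wistar rats, with 1 rat per array. PBMC are the lymphocytes and monocytes that a Ficoll gradient separates from blood. From the age of 2 months, 14 rats had standard chow (control) and 15 rats had chow with a fat-rich, hypercaloric cafeteria diet beside it, and blood of all 29 was taken after 4 months of diet, at 6 months of age. Within each diet, fed rats ate freely, fasted rats had no food for 14 h, and refed rats had free food for 6 h after the same fast. Each of the 6 groups held 5 rats, except for 4 control rats that were fed, because the submitters had left out 1 control sample for low RNA.

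Immediate early genes are transcribed within minutes of a stimulus to the cell, without new protein synthesis, and their products switch on later genes. Kinase cascades reach them through serum response factor, which binds the CArG box, and its ETS-family partners. The cascades also act through CREB, which binds the cAMP response element (CRE). Egr1, Egr2 and Egr3 encode zinc finger proteins. Fos, Fosb, Jun and Junb encode subunits of the dimeric factor AP-1, Atf3 encodes a stress-induced relative that pairs with Jun proteins, and Nr4a1 and Nr4a2 encode orphan nuclear receptors that act without a known hormone. In blood these genes respond to activation of monocytes and lymphocytes.

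RefSeq promoter windows of the GRCr8 build were at hand for 6 of the 10 genes (Egr1, Egr2, Fosb, Junb, Nr4a1 and Nr4a2). The 250 bases upstream of the start are printed here for 4 of them, because they carry different mixtures of the response elements named above. Egr1 is at chr18:26736828-26737077 on the + strand, Egr2 at chr20:21054442-21054691 on the - strand, Junb at chr19:40080876-40081125 on the + strand and Nr4a1 at chr7:134259888-134260137 on the + strand. Each is written 5′ to 3′ along its gene, and capitals mark CArG boxes and the CRE core TGACG or its complement CGTCA.
Egr1: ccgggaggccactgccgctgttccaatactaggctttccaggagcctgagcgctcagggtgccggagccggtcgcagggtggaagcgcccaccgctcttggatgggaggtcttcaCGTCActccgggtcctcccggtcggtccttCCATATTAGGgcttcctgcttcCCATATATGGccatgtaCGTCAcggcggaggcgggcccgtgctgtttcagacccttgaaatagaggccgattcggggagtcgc
Egr2: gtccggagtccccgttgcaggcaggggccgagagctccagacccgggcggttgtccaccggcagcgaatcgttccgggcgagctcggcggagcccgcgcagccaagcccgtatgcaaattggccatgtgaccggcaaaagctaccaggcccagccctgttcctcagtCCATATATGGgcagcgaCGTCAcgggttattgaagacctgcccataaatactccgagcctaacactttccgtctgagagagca
Junb: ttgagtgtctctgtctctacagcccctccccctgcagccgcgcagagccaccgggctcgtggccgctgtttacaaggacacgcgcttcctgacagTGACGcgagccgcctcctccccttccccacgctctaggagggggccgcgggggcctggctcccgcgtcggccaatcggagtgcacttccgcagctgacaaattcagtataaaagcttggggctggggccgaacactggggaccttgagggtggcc
Nr4a1: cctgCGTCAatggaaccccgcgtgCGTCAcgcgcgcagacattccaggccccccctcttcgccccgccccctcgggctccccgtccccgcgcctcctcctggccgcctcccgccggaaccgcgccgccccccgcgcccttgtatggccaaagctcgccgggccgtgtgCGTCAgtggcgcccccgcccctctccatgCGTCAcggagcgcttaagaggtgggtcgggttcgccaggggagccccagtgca

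Egr1 held 2 CArG boxes, 105 to 96 and 83 to 74 bases before the start, and 2 CRE cores. Egr2 held 1 CArG box at 83 to 74 bases and 1 CRE core, the latter 66 to 62 bases before the start in both genes. Junb held 1 CRE core and no CArG box, and Nr4a1 held 4 CRE cores and no CArG box. Among the windows not shown, Nr4a2 held 1 CRE core and Fosb held none of the motifs searched. A CArG box stood in 1.5% of 33469 promoter windows of the same length, the CRE core in 18.2% and both in 0.23%. All 3 CArG boxes of Egr1 and Egr2 had an ETS core (GGAA, either strand, overlap allowed) within 10 bases, which 0.702% of the windows had. No member's window held the full CRE (TGACGTCA, found in 1.59% of windows) or the AP-1 site (TGANTCA, in 6.34%), searched on both strands. The full CRE contains the core. These matches describe letters in 1 window per gene and say nothing about binding in these cells.

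Every value is given as a log2 ratio of the rat's own RNA (Cy5) over a pool of all samples (Cy3). Without a dye swap a probe's response to the dyes can shift all its ratios, so 0 need not be the level of the pool. Junb, for example, had group means from -0.72 to 0.05, so values are read between groups. Values of single rats are listed in order of rat number. A difference between 2 groups is a log2 change, and 1 is a doubling. Tests were limma fits over all 24242 genes, with p-values adjusted by Benjamini-Hochberg within each comparison, and the threshold for a call was an adjusted p of 0.05. Levels of different genes are not compared, since probes differ in brightness. On the rn4 build that the file headers name, the probes lie at chr18:27347173-27347232 (+ strand) for Egr1, chr19:24832781-24832840 (+ strand) for Junb, chr13:107191691-107191749 (- strand) for Atf3 and chr3:38867021-38867080 (- strand) for Nr4a2, and the exon or UTR that each matches is not given in the sources used here. The probes of 9 members were well above background on all 29 arrays and none was saturated. The Egr3 probe was well above background on 16 of 29 arrays (3 of 4 control fed, 2 of 5 control fasted, 2 of 5 control refed, 3 of 5 cafeteria fed, 4 of 5 cafeteria fasted and 2 of 5 cafeteria refed), so its values lie near the detection limit. The background correction adds an offset of 50, which understates changes of dim probes. The median background-subtracted Cy5 signal was 32.9 for Egr3, 108 for Egr2, 118 for Fosb and 178 for Nr4a2, against 706 for Atf3, 2469 for Egr1, 2684 for Junb, 5214 for Fos, 28552 for Jun and 40808 for Nr4a1.

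The shares of spots well above background in Cy5 ran from 53.3% to 66.7% over the 29 arrays. Arrays lay on 8 slides scanned on 1 day, and the scanner images were processed in 2 runs of the image software. The first run held 2 of 4 control fed, 4 of 5 control fasted, 2 of 5 control refed, 4 of 5 cafeteria fed, 1 of 5 cafeteria fasted and 1 of 5 cafeteria refed arrays. Markers of T cells (7 of 8 on the list), B cells (5 of 8), NK cells (6 of 7) and monocytes (9 of 10) were detected, as the label PBMC implies, and so were markers of platelets (7 of 10), neutrophils (9 of 10) and red cell precursors (5 of 7). Egr1 and Jun were each printed 10 times per array. The SD over those spots had a median of 0.041 for Egr1 and 0.035 for Jun, while the SD between rats of a group, pooled over groups, was 0.57 and 0.59. With 1 array per rat, variation between rats and between arrays cannot be told apart.

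Egr1, a zinc finger factor of growth and inflammatory signalling, was highest in cafeteria fasted rats and lowest in cafeteria refed rats. Its log2 ratio in rats of the control diet was 0.66, -0.54, 0.25 and -0.08 when fed, -0.07, 0.20, 0.27, 0.53 and 0.37 when fasted, and 0.81, -0.76, 0.05, -1.04 and 0.12 when refed. In rats of the cafeteria diet it was -0.94, 0.13, -0.50, 0.78 and -0.30 when fed, 1.63, 1.53, 0.53, 0.51 and 0.29 when fasted, and -1.29, -0.51, -1.08, -0.05 and -0.90 when refed. The cafeteria fasted and refed rats did not overlap, whereas the 3 control groups lay across each other. In order, the group means ± SD were 0.90 ± 0.63 in cafeteria fasted, 0.26 ± 0.22 in control fasted, 0.07 ± 0.51 in control fed (n = 4), -0.16 ± 0.74 in control refed, -0.17 ± 0.65 in cafeteria fed and -0.77 ± 0.49 in cafeteria refed rats (n = 5 elsewhere). Of the 5 steps between neighbours in this order, the first (0.64) and the last (0.60) exceeded the pooled SD between rats of 0.57. For the other 9 members no step between neighbouring groups exceeded that member's pooled SD.

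Egr2, a relative of Egr1 that acts in myeloid and T cell differentiation, followed the same order at its top, with means of 0.22 ± 0.09 in cafeteria fasted and 0.14 ± 0.18 in control fasted rats. The other groups lay between -0.04 ± 0.21 (cafeteria refed) and 0.13 ± 0.23 (cafeteria fed). Egr3 had group means between -0.03 and 0.04, all near the limit of detection.

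**Figure D1:**
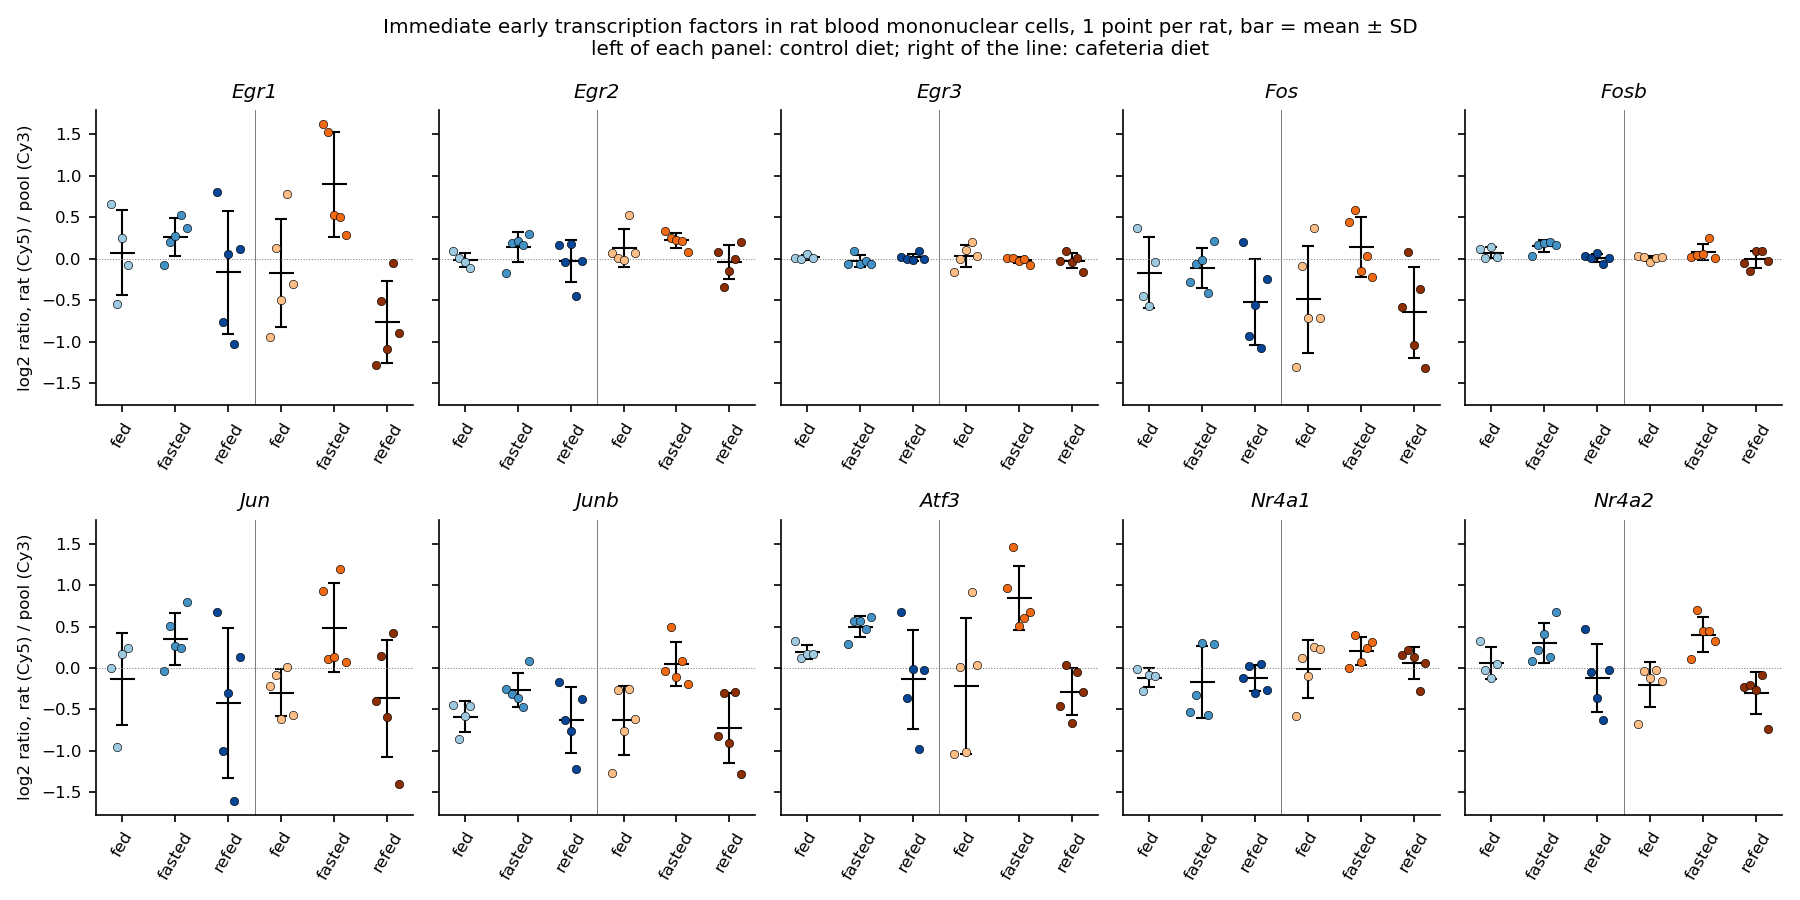
Log2 ratio of each of the 10 genes in each rat (y axis, Cy5 over the Cy3 pool) by group (x axis), with 1 point per rat and bars for the mean and SD; blue is the control diet (4, 5 and 5 rats) and orange the cafeteria diet (5 rats each). Egr1, Junb, Atf3 and Nr4a2 of cafeteria refed rats lie below all cafeteria fasted rats, while Egr3 stays between -0.16 and 0.20 in all 29 rats.

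Among the AP-1 subunits, Junb, which often restrains Jun, was highest in cafeteria fasted rats as well. The log2 ratio of Junb was -1.26, -0.26, -0.76, -0.26 and -0.61 in cafeteria fed rats, -0.03, 0.49, -0.10, 0.08 and -0.19 after the fast, and -0.82, -0.30, -0.90, -0.29 and -1.28 after refeeding. The fasted rats lay above every fed and every refed rat of that diet. In control rats Junb was -0.45, -0.86, -0.58 and -0.46 when fed, -0.26, -0.32, -0.37, -0.47 and 0.08 when fasted, and -0.17, -0.62, -0.76, -1.21 and -0.37 when refed, with overlap between the 3 groups.

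Fos, whose product pairs with Jun proteins, had its highest mean in cafeteria fasted rats (0.14 ± 0.36) and its lowest in cafeteria refed rats (-0.65 ± 0.55), with overlap between them. The means of Fos were -0.17 ± 0.43 in control fed, -0.12 ± 0.24 in control fasted, -0.52 ± 0.52 in control refed and -0.49 ± 0.65 in cafeteria fed rats. Jun had means of 0.49 ± 0.53 in cafeteria fasted and 0.35 ± 0.31 in control fasted rats, above -0.13 ± 0.55 in control fed, -0.30 ± 0.28 in cafeteria fed, -0.36 ± 0.71 in cafeteria refed and -0.42 ± 0.90 in control refed rats. Jun of cafeteria fasted rats (0.07 to 1.19) lay above all cafeteria fed rats (-0.61 to 0.01) but not above all refed rats (-1.40 to 0.42). Fosb, a dim probe, was highest in control fasted rats (0.15 ± 0.07) and lay between -0.01 and 0.08 in the means of the other groups.

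Atf3, a factor induced by stress and by Toll-like receptor signals, was 0.97, 1.46, 0.50, 0.60 and 0.68 in fasted rats of the cafeteria diet and -0.46, 0.03, -0.66, -0.04 and -0.29 after refeeding. In cafeteria fed rats it was -1.04, 0.02, -1.01, 0.92 and 0.04, a span that crossed both other groups. In control rats Atf3 was 0.32, 0.13, 0.17 and 0.17 when fed, 0.29, 0.57, 0.56, 0.47 and 0.61 when fasted and 0.67, -0.36, -0.01, -0.97 and -0.02 when refed. Within their own groups the control fed and the control fasted rats varied little (SD 0.09 and 0.13), around means of 0.20 and 0.50. Control refed rats were spread widely (SD 0.60).

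The orphan receptors differed from each other. Nr4a2 was -0.68, -0.03, -0.12, -0.03 and -0.16 in cafeteria fed, 0.11, 0.70, 0.44, 0.44 and 0.33 in cafeteria fasted and -0.23, -0.20, -0.27, -0.08 and -0.73 in cafeteria refed rats. Fasted rats of that diet thus stood above all fed and all refed rats. Control rats had Nr4a2 means of 0.06 ± 0.19 fed, 0.30 ± 0.24 fasted and -0.12 ± 0.41 refed. Nr4a1, known for its induction by antigen receptor signals, had group means between -0.17 ± 0.43 (control fasted) and 0.21 ± 0.17 (cafeteria fasted), and fasted rats overlapped with fed and refed rats in both diets.

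Fasting was examined in each diet. In control rats 0 of 10 members were called, where 0.177% of all genes tested were called, and 0 had an unadjusted p under 0.05. The changes ran from -0.05 for Nr4a1 to 0.48 for Jun, and their median was 0.17, against 0.0043 over all genes. In cafeteria rats 0 of 10 were called, with 0.858% of all genes called, although 6 of 10 had an unadjusted p under 0.05, as did 10.5% of all genes, and 9 of 10 had a value above 0. Fasted rats did not overlap with fed rats, from above, for 3 of 10 members (Jun, Junb and Nr4a2) and 1.37% of all genes. Fasted rats were above fed rats by 1.06 ± 0.34 (SE) for Egr1 (adjusted p = 0.154), 1.06 ± 0.28 for Atf3 (adjusted p = 0.0694), 0.68 ± 0.20 for Junb (adjusted p = 0.112) and 0.61 ± 0.17 for Nr4a2 (adjusted p = 0.0749). The values for Jun and Fos were 0.78 ± 0.35 (adjusted p = 0.408) and 0.63 ± 0.28 (adjusted p = 0.412). The median over the members was 0.62, against 0.0045 over all genes. Single rats set which side of the threshold 2 of these fell on: without cafeteria fed rat 10 Atf3 had an adjusted p of 0.0103, and without cafeteria fasted rat 2 Nr4a2 had 0.0483. On the log2 scale of the scanner's processed signals, which carry no offset, the value of Nr4a2 was 1.23. The first image run held 4 cafeteria fed rats and 1 fasted rat, and the second run 1 and 4. Within the first run fasted rats exceeded fed rats by 1.77 for Egr1, 1.73 for Atf3, 1.21 for Junb and 0.94 for Nr4a2. Within the second run these were 0.61, 0.67, 0.20 and 0.36. Fos had 1.18 and 0.12, and Jun 0.46 and 0.67. With run as a block 22 of all genes were called, and 1 with slide as a block, against 208 with neither. The part of the run in these values was not tested.

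Refeeding after the fast lowered 4 of 10 members in cafeteria rats, where 1.41% of all genes were called in either direction and 0.656% as lower. Egr1 fell by 1.66 ± 0.34 on the log2 scale (95% interval -2.35 to -0.97), or 3.16-fold (adjusted p = 0.0120). Atf3 fell by 1.13 ± 0.28, or 2.18-fold (adjusted p = 0.0413), Junb fell by 0.77 ± 0.20, or 1.71-fold (adjusted p = 0.0499), and Nr4a2 fell by 0.71 ± 0.17, or 1.63-fold (adjusted p = 0.0273). For each of these 4 genes, and for no other member, 5 of 5 refed rats lay below the lowest fasted rat, as was the case for 1.32% of all genes tested. Not called were Jun at -0.85 ± 0.35 (adjusted p = 0.274), Fos at -0.79 ± 0.28 (adjusted p = 0.188), Egr2 at -0.26 ± 0.12 (adjusted p = 0.312), Nr4a1 at -0.15 ± 0.16 (adjusted p = 0.742), Fosb at -0.08 ± 0.05 (adjusted p = 0.498) and Egr3 at -0.01 ± 0.05 (adjusted p = 0.972). All 10 values were below 0, with a median of -0.74 against -0.0032 over all genes.

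Of these falls, that of Egr1 was called with each of the 10 rats left out in turn (adjusted p from 0.0070 to 0.0447). The other calls were lost in most of these fits. Nr4a2 was called in 4 of the 10 fits without 1 rat, Atf3 in 3 and Junb in 2, with adjusted p up to 0.0912, 0.115 and 0.138. Their changes stayed below 0, at -0.78 to -0.60, -1.21 to -0.97 and -0.88 to -0.63. Without cafeteria fasted rat 5, 11 or cafeteria refed rat 3, 9 or 15, Egr1 was the member still called. The call of Egr1 was lost, and Atf3 was the only member called, when the fit held the 2 compared groups alone. Median centring in place of loess left 0 members called, while Egr1 and Nr4a2 were called with slide as a block. Within the second image run, with 4 rats in each group, the means differed by -1.37 for Egr1, -0.93 for Atf3, -0.64 for Junb and -0.65 for Nr4a2, and within the first run, with 1 rat in each, by -2.81, -1.91, -1.31 and -0.93. From the processed signals the fall of Nr4a2 was -1.42 and the value of Egr2 -0.65, larger than with the offset.

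In control rats refeeding called 0 of 10 members, although 9.33% of all genes were called. The values were -0.77 ± 0.35 for Jun (adjusted p = 0.186), -0.64 ± 0.28 for Atf3 (adjusted p = 0.171), -0.42 ± 0.34 for Egr1 (adjusted p = 0.506), -0.42 ± 0.17 for Nr4a2 (adjusted p = 0.114) and -0.14 ± 0.05 for Fosb (adjusted p = 0.0831). Below 0 were 8 of 10, and 4 of 10 had an unadjusted p under 0.05, as did 22.2% of all genes. Control refed rats had the widest spread of any group for Jun and Egr1 (SD 0.90 and 0.74). Rat 3 of that group was the highest for 6 members and rat 12 the lowest for 8. Without rat 3 Nr4a2 had an adjusted p of 0.0228, and without control fasted rat 2 Fosb had 0.0413.

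**Figure D2:**
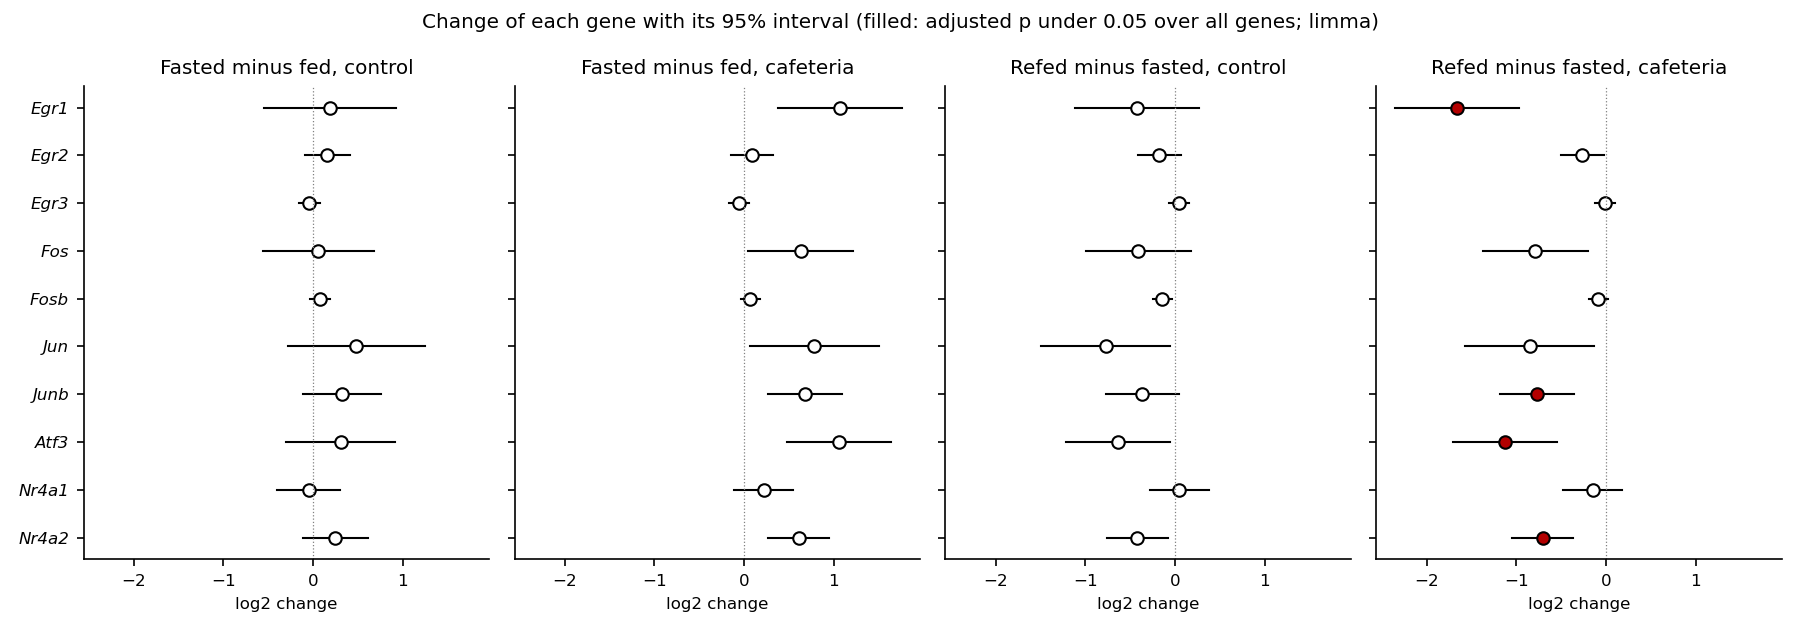
Log2 change of each gene (x axis) with its 95% interval for fasting and refeeding in each diet, filled where the adjusted p over all genes was under 0.05 (limma). Filled points are Egr1, Junb, Atf3 and Nr4a2 in refed against fasted cafeteria rats, at -1.66, -0.77, -1.13 and -0.71; the same genes in control rats had values from -0.64 to -0.36.

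The 2 diets were then compared for these responses. No member had a called difference in its response between diets: 0 of 10 for fasting and 0 of 10 for refeeding, in interaction tests that called 0% of all genes (774 and 1812 of 24242 genes had an unadjusted p under 0.05, and 0 and 1 of the members). The Egr1 change on refeeding was lower in cafeteria than in control rats by -1.24 ± 0.48 (95% interval -2.22 to -0.26, adjusted p = 0.640). For Atf3 the difference was -0.49 ± 0.40 (95% interval -1.31 to 0.33). The calls in cafeteria rats are therefore not shown to differ from the absence of calls in control rats.

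Averaged over both diets, refeeding lowered 7 of 10 members, where 13.5% of all genes were called and 7.53% as lower. Egr1 fell by 1.04 ± 0.24 (adjusted p = 0.00372), Atf3 fell by 0.88 ± 0.20 (adjusted p = 0.00335), Junb fell by 0.57 ± 0.14 (adjusted p = 0.00732) and Nr4a2 fell by 0.56 ± 0.12 (adjusted p = 0.00176). These 4 were called in 20 of 20 fits that left out 1 rat. Jun fell by 0.81 ± 0.25 (adjusted p = 0.0276), Fos fell by 0.60 ± 0.20 (adjusted p = 0.0462) and Fosb fell by 0.11 ± 0.04 (adjusted p = 0.0365), and they were called in 14, 7 and 9 of the 20. Leaving out control fasted rat 14, control refed rat 6 or 12, or cafeteria fasted rat 11 gave 4 calls in place of 7. Of 11 other settings, 10 called Nr4a2 and Atf3, 9 Egr1, 8 Junb and Jun, 4 Fosb and 3 Fos. With the processed signals Fosb had an adjusted p of 0.186 and Fos 0.0510. Egr2 was at -0.22 ± 0.08 (adjusted p = 0.0750), Nr4a1 at -0.05 ± 0.11 (adjusted p = 0.832) and Egr3 at 0.02 ± 0.04 (adjusted p = 0.820). The comparison uses the same rats as the 2 within each diet, so it is not separate evidence. Within the second image run alone Atf3 and Nr4a2 were called, and within the first run 0 members.

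Fasting averaged over both diets raised 2 of 10 members, where 4.1% of all genes were called and 1.84% as higher. Junb rose by 0.50 ± 0.15 (adjusted p = 0.0498) and Nr4a2 by 0.43 ± 0.12 (adjusted p = 0.0402). Atf3 was at 0.68 ± 0.20 (adjusted p = 0.0584), Jun at 0.63 ± 0.26 (adjusted p = 0.185) and Egr1 at 0.63 ± 0.25 (adjusted p = 0.170). Both calls lay close to the threshold: of 19 fits without 1 rat, Junb was called in 3 and Nr4a2 in 7 (adjusted p up to 0.106 and 0.0855), and without cafeteria fed rat 10 Atf3 had an adjusted p of 0.00712. Within either image run alone 0 were called.

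Refed and freely fed rats were compared as well. In control rats 0 of 10 members were called, with 0% of all genes called and 1418 of 24242 at an unadjusted p under 0.05, and in cafeteria rats 0 of 10, with 0% of all genes called and 1034 at an unadjusted p under 0.05. None of the 10 members had an unadjusted p under 0.05 in either diet. The 95% intervals were wide, from -1.29 to 0.10 for Egr1 in cafeteria rats and from -0.97 to 0.50 in control rats, so these data do not show that levels after refeeding equal those of fed rats.

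The cafeteria diet itself called 0 of 10 members in fed rats (0.00825% of all genes called), 0 of 10 in fasted rats (0.829%), 0 of 10 in refed rats (0.223%) and 0 of 10 averaged over the 3 conditions (3.25%). The lowest adjusted p was that of Nr4a1 over the 3 conditions, with cafeteria rats above control rats by 0.22 ± 0.09 (adjusted p = 0.254), and Nr4a1 in fasted rats was at 0.38 ± 0.16 (adjusted p = 0.268). Egr1 was at -0.24 ± 0.36 in fed, 0.64 ± 0.34 in fasted and -0.60 ± 0.34 in refed rats (adjusted p = 1.00, 0.383 and 0.712).

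In several groups the same rat was at the extreme for many members. Cafeteria fed rat 10 was the highest of its group for 9 of 10 members and rat 1 the lowest for 7. In control fed rats, rat 1 was highest for 7 and rat 4 lowest for 7. In cafeteria fasted rats, rat 5 was highest for 6 and rat 14 lowest for 7, and in control fasted rats, rat 14 was highest for 6 and rat 2 lowest for 6. Among cafeteria refed rats, rats 6 and 12 were highest for 4 members each and rat 15 lowest for 5.

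Correlations over the 29 rats were computed for all 45 pairs of members, with 100000 permutations and Benjamini-Hochberg adjustment over the 45. Rats share a group, an array layout and the reference pool, so the value with the group means taken out is given beside each. Egr1 and Atf3 had Pearson r = 0.884 and Spearman rho = 0.882 (permutation p = 1e-05 for both, the smallest these permutations give, adjusted p = 4.5e-05), 0.833 with group means out, 0.856 without the 2 rats farthest from the median of Egr1, and 0.893 and 0.884 within the 2 image runs. Junb and Nr4a2 had r = 0.885 and rho = 0.831 (permutation p = 1e-05, adjusted p = 4.5e-05), 0.838 with group means out, 0.836 without 2 rats, and 0.897 and 0.890 within runs. Fos and Junb had r = 0.879 and rho = 0.841 (permutation p = 1e-05, adjusted p = 4.5e-05), 0.872 with group means out, 0.829 without 2 rats, and 0.848 and 0.925 within runs. Jun and Junb had r = 0.779 and rho = 0.743 over all rats (permutation p = 1e-05 and 2e-05, adjusted p = 4.5e-05 and 8.18e-05), 0.681 with group means out and 0.680 without 2 rats, but 0.487 in the first run and 0.940 in the second.

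The 15 pairs among Egr1, Fos, Jun, Junb, Atf3 and Nr4a2, a set put together after the values were seen, had r from 0.666 to 0.885, with a median of 0.806. With group means out these pairs ran from 0.480 (Jun and Atf3) to 0.872 (Fos and Junb). The 9 pairs that involve Nr4a1 had r from -0.0928 to 0.356, and 0 of 9 passed the adjustment. With group means out those with Nr4a1 ran from -0.0572 (with Jun) to 0.457 (with Nr4a2), so the 2 ranges lay closer together. Egr1 and Nr4a1, for example, had r = 0.161 and rho = 0.188 (permutation p = 0.404 and 0.326, adjusted p = 0.466 and 0.408), 0.0400 without 2 rats and 0.0935 with group means out. The probe of Nr4a1 was the brightest of the 10 and not saturated on any array.

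**Figure D3:**
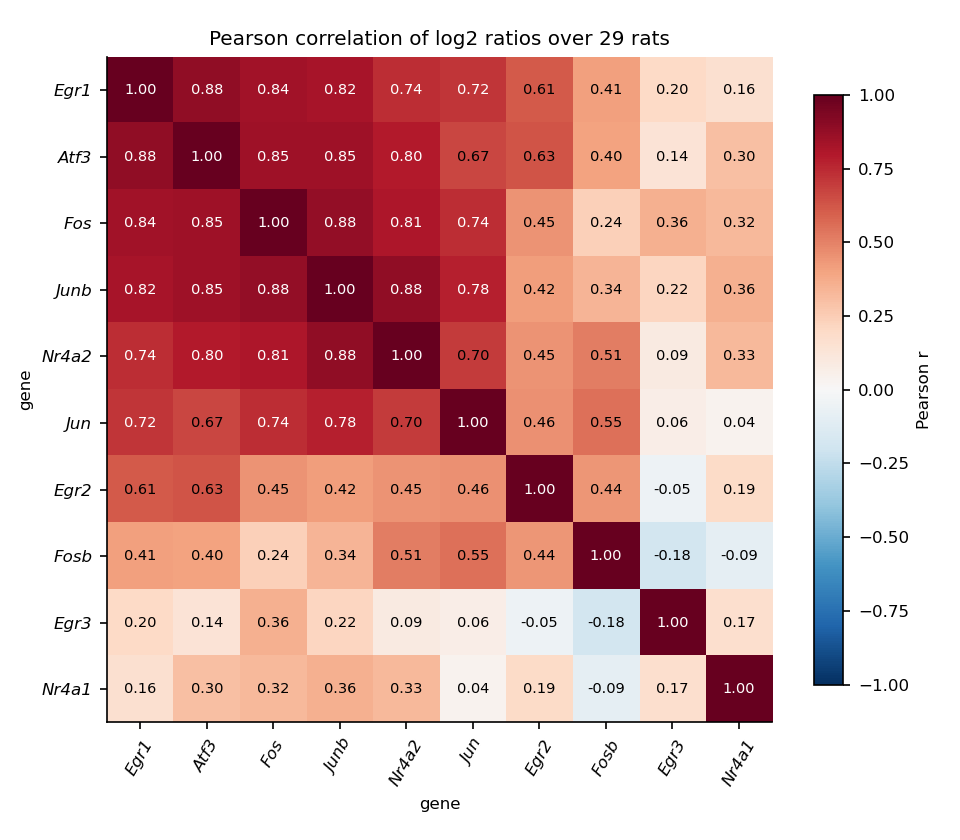
Pearson correlation of the log2 ratios over 29 rats for each pair of the 10 genes (both axes), with r written in each cell and coloured from -1 to 1. The block of Egr1, Atf3, Fos, Junb, Nr4a2 and Jun has r from 0.666 to 0.885, while Nr4a1 has at most 0.356 with any other member. With group means out, which is not drawn, the block has 0.480 to 0.872 and Nr4a1 at most 0.457.

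The genes whose log2 ratio followed each member most closely were found among all other genes with a symbol, by Pearson correlation over the 29 rats, as a description with no test. The chemokine gene Cxcl2, an early target of inflammatory signals in monocytes and neutrophils, came first for 4 members: r was 0.926 with Atf3, 0.911 with Fos, 0.900 with Junb and 0.897 with Egr1. With group means taken out these were 0.892, 0.933, 0.852 and 0.864. Next for Egr1 were the chemokines Cxcl1 (0.813) and Cxcl3 (0.807), and Thbd, which encodes thrombomodulin, was among the nearest 3 of Fos (0.895), Junb (0.898) and Atf3 (0.876). Dnaaf2, a gene of dynein arm assembly, was among the nearest 3 of Fos (0.783), Jun (0.818), Junb (0.883) and Nr4a2 (0.890). Nr4a2 was nearest to Cnot6 (0.898), which encodes a deadenylase subunit, and Jun to Epc2 (0.846). Nr4a1 had other neighbours, with Cebpb, a myeloid transcription factor, first at 0.843 and Ctrc, which encodes a chymotrypsin, next at 0.839. For Egr2 the nearest was Tppp3 (0.728), for Fosb Aak1 (0.766) and for Egr3 Sh3bp4 (0.672).

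Of 31 other early-response genes on the list, also chosen with earlier results of these data known, 28 were tested. The share called on fasting averaged over diets (7 of 28) stood against 4.1% of all genes, and that on refeeding (6 of 28) against 13.5%; in refed control rats 1 of 28 was called where 9.33% of all genes were. Fasting averaged over both diets raised 7 of 28 and lowered 0, among them Nfil3, a leucine zipper repressor (0.61, adjusted p = 0.00241), Nfkbia, the inhibitor of NF-kB (0.57, adjusted p = 0.00565), and Rgs1, a G protein regulator (0.94, adjusted p = 0.0125). Refeeding averaged over both diets lowered 5 of 28 and raised 1: Nfil3 fell by 0.70 (adjusted p = 0.000267), the kinase gene Plk3 fell by 0.22 (adjusted p = 0.000616), and Klf2, a factor of resting lymphocytes, rose by 0.26 (adjusted p = 0.00505). In cafeteria rats alone refeeding lowered 2 of 28 (1.41% of all genes called), Plk3 at -0.29 (adjusted p = 0.00967) and Nfil3 at -0.72 (adjusted p = 0.0172). In control rats it lowered 1 of 28, Nfil3 at -0.67 (adjusted p = 0.00687). Fasting raised 1 of 28 in cafeteria rats (0.858% of all genes called), Nfil3 at 0.68 (adjusted p = 0.0341), and 0 of 28 in control rats (0.177%). The median change of the 28 on refeeding was -0.24 in cafeteria and -0.08 in control rats, against -0.74 and -0.39 for the 10 members.

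Of the kinases and factors upstream, 24 of 25 were tested. Fasting averaged over diets called 0 of 24 (4.1% of all genes called), and refeeding raised 1 and lowered 2, a share near the 13.5% of all genes called there. The calls in control rats, 3 of 24, were likewise near the background of 9.33%. Refeeding in control rats raised Mrtfa, a coactivator of serum response factor (0.27, adjusted p = 0.00561), and Rps6ka1, a kinase below ERK (0.38, adjusted p = 0.0310), and lowered Map2k3, a kinase above p38 (-0.73, adjusted p = 0.00401). In cafeteria rats refeeding called 0 of 24 (1.41% of all genes called). The genes of serum response factor, Elk1 and Creb1 were measured at the level of RNA only, and kinase activity was not measured.

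Of the inhibitors and partners, such as the phosphatases that switch off kinases and the proteins that degrade early mRNAs, 20 of 22 were tested. Fasting averaged over diets raised 4 and lowered 1: Dusp5, an ERK phosphatase, rose by 0.68 (adjusted p = 0.00393), Zfp36l2, an mRNA decay protein, by 0.62 (adjusted p = 0.00581) and Tob1, an antiproliferative protein, by 0.40 (adjusted p = 0.0178). Refeeding lowered 5 and raised 2: Tob1 fell by 0.47 (adjusted p = 0.00153), Dusp5 fell by 0.61 (adjusted p = 0.00231), and Zfp36l1 rose by 0.34 (adjusted p = 0.00426). Together these were 5 of 20 on fasting and 7 of 20 on refeeding, where 4.1% and 13.5% of all genes were called. Refeeding in control rats raised 2 of 20 and lowered 2 (9.33% of all genes called), with Dusp5 at -0.86 (adjusted p = 0.00362) and Tob2 at 0.41 (adjusted p = 0.00990). In cafeteria rats refeeding lowered 1 of 20 (1.41% of all genes called), Spry1 at -0.33 (adjusted p = 0.0474), and fasting raised 1 of 20 (0.858% of all genes called), Zfp36l2 at 0.78 (adjusted p = 0.0328).

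Blood cell markers were measured beside these results. For refed against fasted cafeteria rats, where Egr1, Junb, Atf3 and Nr4a2 fell, 0 markers were called out of 7 for platelets, 9 for monocytes, 9 for neutrophils, 7 for T cells, 5 for B cells, 6 for NK cells and 5 for red cell precursors. In that comparison 1.41% of all genes were called. The summed level of a list is given as the mean log2 ratio of its genes in a rat. In fasted and then in refed rats of the cafeteria diet, monocyte markers ran from -0.30 to 0.28 and from -0.26 to 0.39, neutrophil markers from -0.38 to 1.04 and from -0.34 to 0.83, and platelet markers from -0.41 to 0.37 and from -1.72 to 0.49. NK cell markers ran from -0.36 to 0.69 in fasted and from -1.38 to 0.26 in refed rats of that diet, with all 6 changes below 0 and a median of -0.30, whereas the median in control rats was 0.24. Red cell markers ran from -0.82 to 0.36 in fasted and from -0.77 to 1.00 in refed rats of that diet. All 5 of their changes were above 0, with a median of 0.48, whereas the median in control rats was -0.27. The diet by refeeding interaction called 0 of 6 NK cell and 0 of 5 red cell markers, so neither list is shown to differ between diets. Averaged over both diets, where 7 members fell, refeeding also lowered 7 of 7 platelet markers, with Gp9 at -1.09 (adjusted p = 0.00106). It called 1 of 9 monocyte markers higher (Cx3cr1, 0.20), 1 of 5 B cell markers higher (Cd22, 0.32) and 1 of 7 T cell markers lower (Cd28, -0.29). These single calls were near the 13.5% of all genes called there. The platelet fall was called in control rats (7 of 7, median -1.57), where 9.33% of all genes were called. It was not called in cafeteria rats (0 of 7, median -0.57), where 1.41% of all genes were called. The diet by refeeding interaction called 0 of 7 platelet markers and 0% of all genes, so the diets are not shown to differ. Fasting averaged over diets, where Junb and Nr4a2 rose, called 4.1% of all genes. It called 1 of 7 T cell markers higher (Cd28, 0.35) and 0 of the other 6 lists' markers. The medians there were 0.35 for platelet, 0.34 for red cell, 0.08 for NK cell, 0.03 for neutrophil, -0.06 for B cell and -0.19 for monocyte markers. The part of these cells in the members' changes was not tested. In RNA of mixed blood cells, fewer cells of a type and less RNA per cell cannot be told apart. Spots well above background made up 58.1% to 66.0% in the fasted rats and 59.8% to 66.2% in the refed rats of the cafeteria diet.

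**Figure D4:**
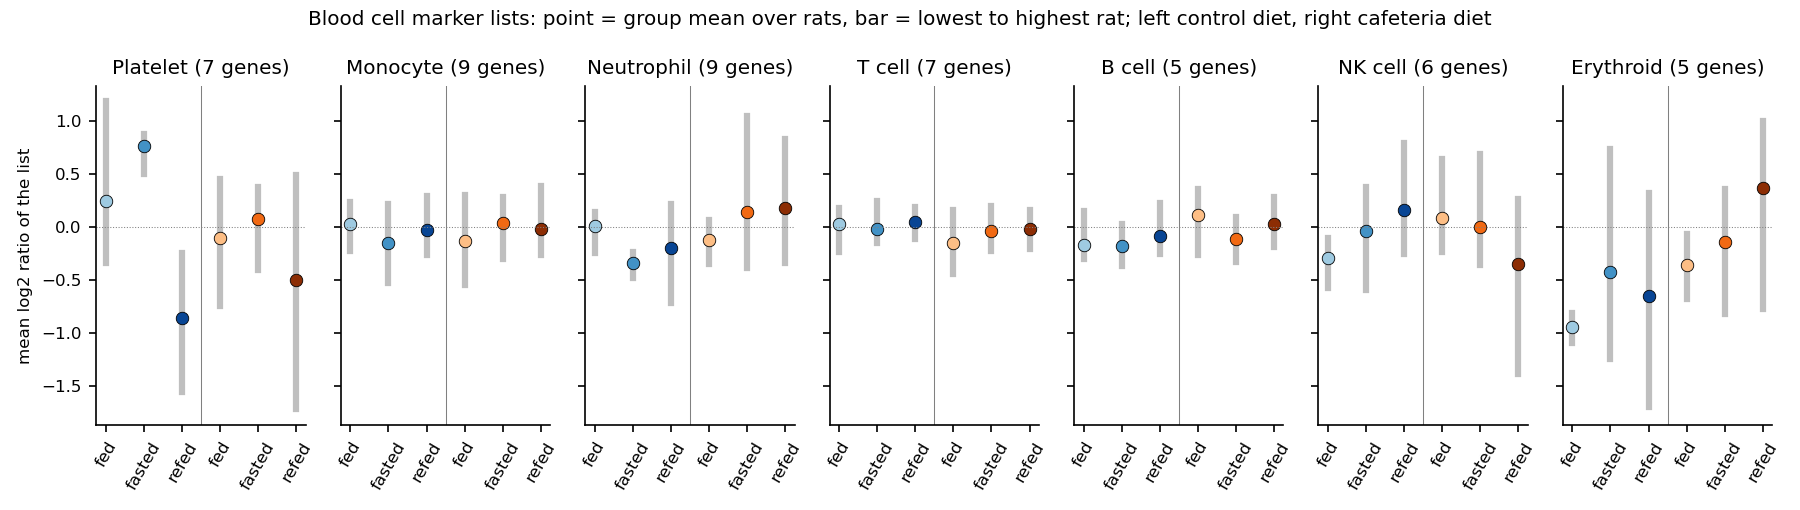
Mean log2 ratio of each blood cell marker list (y axis) by group (x axis), with a point for the group mean and a grey bar from the lowest to the highest rat. Platelet markers lie at 0.77 in control fasted and -0.86 in control refed rats; monocyte and T cell group means stay between -0.15 and 0.05.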

How the data were processed

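RNA of blood mononuclear cells was measured on 29 2-colour Agilent arrays, 1 rat each, with the rat's RNA in Cy5 and a pool of all samples in Cy3 and no dye swap. The authors' files of scanner output give intensity values per spot, from Agilent Feature Extraction 9.5.1.1 with probes placed on the rn4 build, per the file headers. The authors' deposited value table, called normalized Cy5 signal in the labels and found to be on a log2 scale, served as an alternative, and lacks the Egr3 probe. Its slope against log2 of the scanner's Cy5 intensity was 0.985 to 1.02 and its column medians 9.37 to 9.76, so scale and direction are known, while its centring between arrays is not given in the sources used here.

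Scanner values were corrected with normexp (offset 50) and normalized within arrays by loess (limma 3.58.1, R 4.3.3), with control and outlier spots at weight 0. Outlier spots were left out and spots of a probe averaged, which left 526 values of a probe on an array missing. Of 41012 probes, 28193 with Cy5 well above background on at least 4 arrays were kept, and the brightest stood for its gene (24242 genes, 11214 with a symbol, 128 names set aside). Group means of all 6 groups were fitted with lmFit and eBayes, with 14 comparisons. The members and the gene lists were chosen with earlier results of these data known. Other genes were named by the smallest adjusted p in the pathway lists, at most 6 per comparison. The steps were tested on simulated data. The number of arrays limits the precision. Alternatives covered the background, the normalization, the reference channel, the filter, probes, slide, image run, groups in the fit and leaving out each rat. The 2 image runs alone were tried after the data were seen. Rat numbers recur in both diets, and the main fit did not pair rats by number. Of 14 same-numbered pairs, 2 correlated over 0.1 (-0.151 to 0.208). Low correlations cannot exclude that the numbers mark a pairing in the study's design.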

Additional observations from a re-analysis of the deposited data

Results flagged for a closer look

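In 9 of 60 sets of 4 or 5 rats (10 members in 6 groups), 1 rat stood apart from the others by Dixon's criterion at 95%, where chance alone flags about 1 in 20 sets. Most concern dim probes and small differences. Egr2 was low in control fasted rat 2, at a log2 ratio of -0.17 against 0.17 for the next rat, and high in cafeteria fed rat 10, at 0.53 against 0.07. Egr3 was high in control fed rat 7 (0.0584, next 0.00359) and in control fasted rat 5 (0.10, next -0.03), on a probe near the detection limit. Fosb was low in control fasted rat 2 (0.0286, next 0.168) and in cafeteria fed rat 7 (-0.0448, next 0.0103), and high in cafeteria fasted rat 11 (0.25, next 0.06). Nr4a2 was low in cafeteria fed rat 1 (-0.68, next -0.16) and in cafeteria refed rat 15 (-0.73, next -0.27). Without cafeteria refed rat 15 the change of Nr4a2 on refeeding in cafeteria rats had an adjusted p of 0.0912.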

How the results depend on the processing

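Numbers of members called on refeeding in cafeteria rats (4) were 2 with the processed signals, with Cy5 alone, with the authors' deposited table, without the filter and with slide as a block, 1 (Atf3) with the compared groups alone, 0 with median centring and 0 in either image run alone, and from 1 to 4 with 1 rat left out. On refeeding averaged over diets (7) there were 3 with median centring, 0 in run 1 and 2 in run 2, and from 4 to 7 with 1 rat left out. On fasting averaged over diets (2) there were 0 with median centring, without the filter, with slide as a block and in either run, 1 with Cy5 alone, with the mean of probes and with the run as a block, and from 0 to 3 with 1 rat left out. On fasting in cafeteria rats (0) there was 1, Nr4a2, with Cy5 alone and with the authors' deposited table, and from 0 to 1 with 1 rat left out, as on refeeding in control rats (0). The cause of these differences was not tested, and a run alone also held fewer rats. Signs turned for values near 0. With the processed signals Egr3 on fasting in cafeteria rats was 0.35 and over both diets on refeeding -0.00938, and Nr4a1 on refeeding in control rats was -0.00477, or -0.13 with median centring. With Cy5 alone Egr3 was 0.0079, 0.0857 and 0.0468 on fasting (control, cafeteria, both), -0.0091 and -0.0484 on refeeding (control, both), and Nr4a1 on refeeding over both diets was 0.0245. Fosb on fasting in control rats was -0.0014 with the authors' deposited table, and Egr3 on refeeding over both diets was -0.0034 in run 1. With 1 rat left out the ranges on fasting in control rats were -0.0161 to 0.38 for Egr1, -0.0766 to 0.24 for Fos and -0.17 to 0.0487 for Nr4a1. On refeeding they were -0.0521 to 0.17 (control) and -0.10 to 0.0079 (both) for Nr4a1 and -0.0367 to 0.0264 (cafeteria) for Egr3. With the replicate block on rat number, possible for the diet comparisons only, 0 members were called, as without it.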
